A study of Mus musculus with 3 samples.

Results

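The replication-dependent histone genes are the multicopy genes that supply the core histones H2A, H2B, H3 and H4 and the linker histone H1 during DNA replication. They were taken as every protein-coding gene of the GENCODE annotation of mouse build mm10 whose symbol begins with Hist1h, Hist2h, Hist3h or Hist4h, which gave 67 genes of 21851. By class, 6 encode H1, 18 H2A, 18 H2B, 12 H3 and 13 H4. Of the 67, 23 lie in a proximal and 31 in a distal run on chromosome 13, 10 on chromosome 3, 2 on chromosome 11 and 1 on chromosome 6. The rule uses gene names alone and no signal, peak or footprint.

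Open chromatin was mapped by DNase-seq, which sequences the ends that DNase I leaves in accessible DNA, in liver tissue of mouse embryos aged 13.5 days. The animals were wild-type mice of the mixed background C57BL/6N,129 that carried the A20 YAC, a yeast artificial chromosome, as a single copy, and all 3 libraries share it. The labels number the libraries as biological replicates 1, 2 and 3 with a biosample each but 1 donor label, and sex was not collected. The 3 libraries form 1 group with no control, so values are given for each replicate, no test between groups was possible, and the spread between replicates may be technical.

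The libraries differed in how much was called, with 34369 peaks in replicate 1, 122281 in replicate 2 and 60862 in replicate 3. Replicate 3 stood apart from the others at H2A, H2B and H3 promoters, and its values are given beside theirs throughout. Of 10 erythroid marker promoters, 8, 10 and 10 carried a peak in replicates 1, 2 and 3, and of 10 hepatoblast marker promoters 3, 9 and 7 did, Alb having none in any library. Of 5 endothelial markers 1, 3 and 2 did, and of 5 stellate and mesenchymal markers 1, 4 and 1. The liver at this age is the main site of red cell formation, and the signal of a promoter is a mean over all its cells: more cells with an open promoter and a more open promoter per cell cannot be told apart.

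Replication-dependent histone messenger RNAs are made in S phase, when new DNA needs to be packed. They end in a conserved stem-loop, bound by the stem-loop binding protein, in place of a poly(A) tail. Their genes are transcribed at nuclear sites called histone locus bodies, where the scaffold protein NPAT gathers. Classic studies described class-specific promoter elements: an octamer in H2B genes, bound by OCT1, a site of the factor HINFP in H4 genes, and an AAACACA box in H1 genes, with TATA and CCAAT boxes in several classes.

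Promoter stretches of 5 members are printed to show these letters in place. They come from RefSeq's promoter table of GRCm38.p6, the assembly of build mm10, and run 5′ to 3′ on the gene's strand up to the base before the RefSeq gene start. Capitals mark the TATA box, the CCAAT box, the octamer, the H4 element, the H1 box and, in Hist1h4a, an E2F form, each on either strand; their letters are spelled out with the counts further on. Hist1h4a lies at chr13:23761250-23761499 on the minus strand, Hist1h4c at chr13:23698459-23698608 on the minus strand, Hist1h2bk at chr13:22035571-22035820 on the plus strand, Hist1h1c at chr13:23738657-23738806 on the plus strand and Hist1h3e at chr13:23562386-23562535 on the minus strand. The Hist1h2bk stretch covers most of the gap to Hist1h2ah, the H2A gene that starts on the other strand.
Hist1h4a: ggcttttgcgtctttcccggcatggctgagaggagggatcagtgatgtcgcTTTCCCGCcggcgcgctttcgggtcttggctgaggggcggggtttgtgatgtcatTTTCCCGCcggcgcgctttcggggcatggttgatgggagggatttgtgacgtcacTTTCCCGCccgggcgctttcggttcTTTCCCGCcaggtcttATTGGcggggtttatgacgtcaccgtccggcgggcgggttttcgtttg
Hist1h4c: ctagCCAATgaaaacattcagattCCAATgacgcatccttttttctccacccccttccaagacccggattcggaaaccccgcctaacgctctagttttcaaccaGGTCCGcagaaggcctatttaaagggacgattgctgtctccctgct
Hist1h2bk: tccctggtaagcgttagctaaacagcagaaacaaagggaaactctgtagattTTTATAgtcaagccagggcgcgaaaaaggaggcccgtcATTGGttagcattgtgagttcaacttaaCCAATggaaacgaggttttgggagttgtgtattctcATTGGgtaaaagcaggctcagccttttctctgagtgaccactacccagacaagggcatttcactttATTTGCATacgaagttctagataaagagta
Hist1h1c: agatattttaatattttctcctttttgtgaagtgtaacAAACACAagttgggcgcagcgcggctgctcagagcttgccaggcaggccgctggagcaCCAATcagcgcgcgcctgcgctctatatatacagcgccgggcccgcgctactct
Hist1h3e: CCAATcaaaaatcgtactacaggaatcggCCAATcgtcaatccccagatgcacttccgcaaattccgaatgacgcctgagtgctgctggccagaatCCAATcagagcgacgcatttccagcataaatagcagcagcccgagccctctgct

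The window of a promoter reached 500 bp to both sides of each protein-coding transcript start, and it counted as open in a library if at least 1 bp of a peak of the longer deposited list lay in it. Of the 67 histone genes, 86.6%, 88.1% and 91.0% had an open promoter in replicates 1, 2 and 3. The mean over the libraries was 88.6% ± 2.3 (SD, n = 3). Among all protein-coding genes the shares were 52.6%, 65.8% and 54.9%. In all 3 libraries 58 of the 67 were open, against 50.2% of all genes. Footprints, short stretches within open chromatin that are protected from cutting, lay in the promoter of 83.6%, 88.1% and 91.0% of the histone genes, against 50.4%, 64.4% and 52.7% of all genes. A footprint was present in all 3 libraries at 56 of the 67, against 48.1% of all genes.

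The strength of a promoter was the highest peak signal in its window, in the authors' units of that library, and its percentile was the share of all protein-coding genes with a lower signal. The median histone gene stood at percentile 67.4, 74.5 and 87.2 in replicates 1, 2 and 3, against 49.87, 49.99 and 49.91 over all genes. Among genes open in all 3 libraries, the 58 histone genes had median percentiles of 68.3, 75.3 and 88.2, against 74.8, 74.9 and 74.8 for all 10968. Set against other open promoters, the histone genes thus ranked lower in replicate 1, about equal in replicate 2 and higher in replicate 3. Their peaks covered a median of 380, 471 and 345 bp of the window, which exceeded in each library the median for all genes open in every library.

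**Figure D1:**
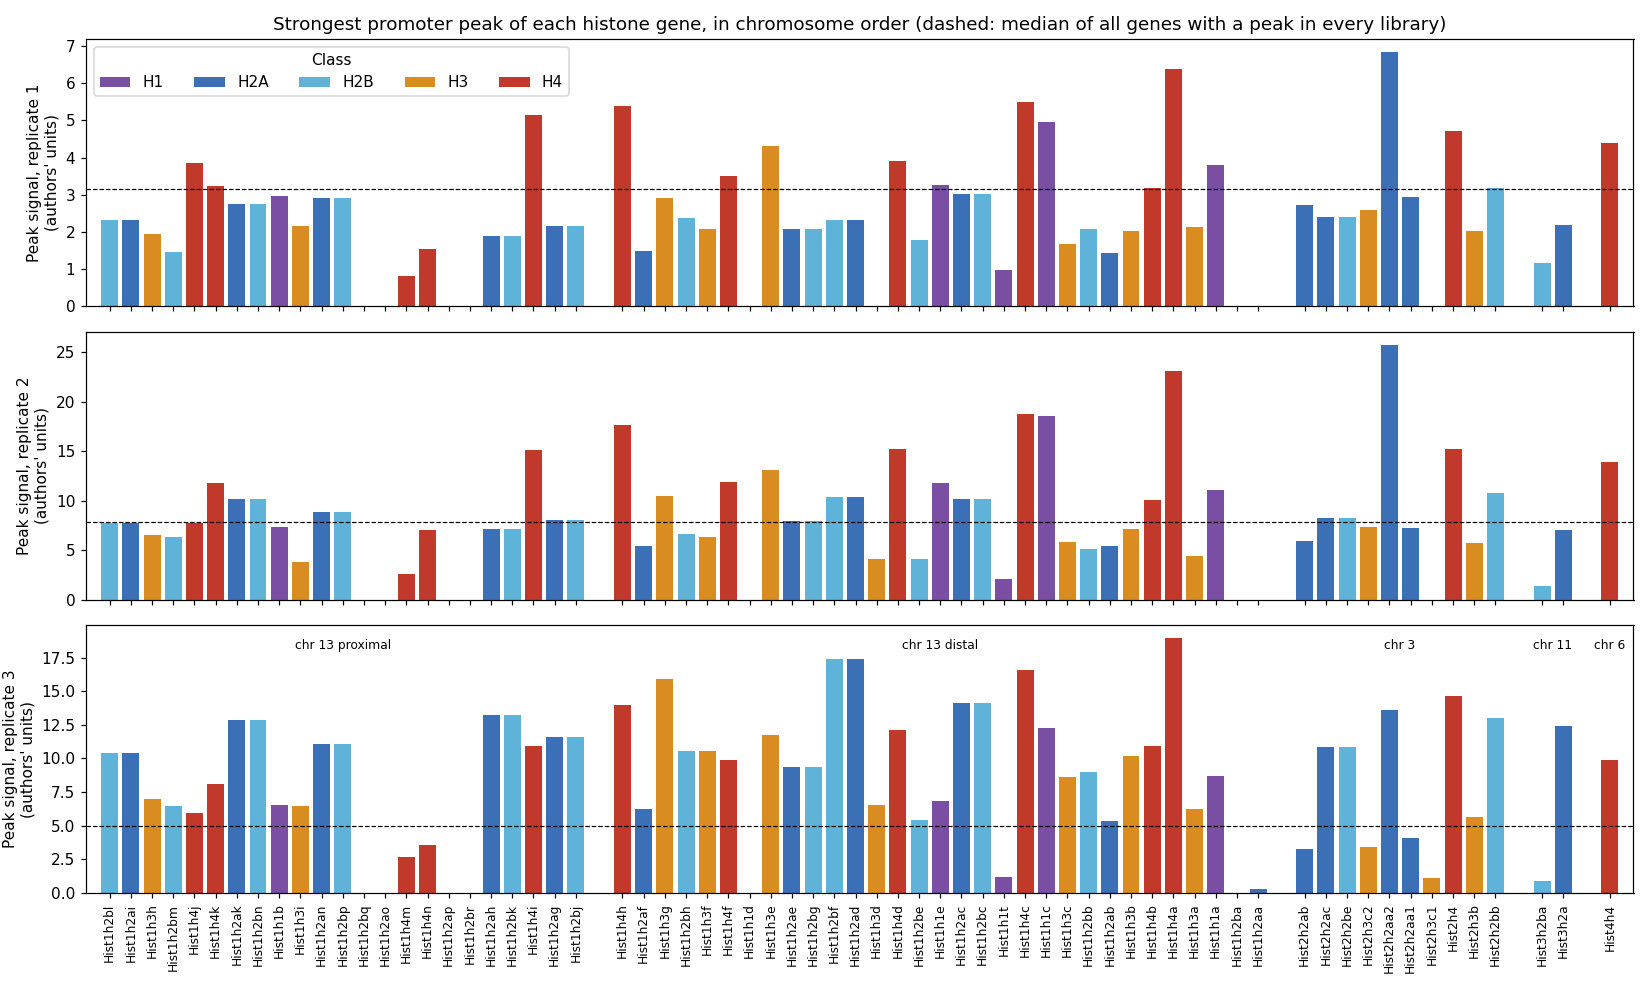
Signal of the strongest promoter peak (y axis, authors' units, 1 panel per replicate) of each of the 67 histone genes in chromosome order, coloured by class, with a dashed line at the median of all genes open in every library. Hist2h2aa2 on chromosome 3 and Hist1h4a stand highest in replicates 1 and 2 and Hist1h4a in replicate 3. There the H2A-H2B pairs Hist1h2bf/Hist1h2ad and Hist1h2ac/Hist1h2bc are among the genes that exceed Hist2h2aa2. In all, 6 genes have no bar in any library.

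Linker histone H1 genes, whose products bind the DNA between nucleosomes, were open in every library at 5 of 6. Hist1h1c was the strongest, with signals of 4.96, 18.5 and 12.2 in replicates 1, 2 and 3, at percentiles 88.5, 93.6 and 90.8. Hist1h1a had 3.81, 11.1 and 8.67, and Hist1h1e had 3.26, 11.8 and 6.82. These 3 lay at or above the median of all open genes in each library, which was 3.15, 7.85 and 4.97. Hist1h1b had 2.98, 7.36 and 6.56. Hist1h1t, which encodes the testis linker histone, was open in all 3 libraries at the lowest signals of the 5, 0.963, 2.04 and 1.18. These peaks are centred 513, 497 and 507 bp after its start, at the edge of the window and inside the gene: with a window of 250 bp it has no peak in any library, and with the shorter peak list it has one in 2.

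Hist1h1d had no peak, footprint or position with a listed false discovery rate in its window in any library. Its annotated start lies 1770 bp from the start that RefSeq gives for the gene. Around the RefSeq start the signals were 3.17, 9.84 and 8.81, with 7, 13 and 13 footprints in replicates 1, 2 and 3. Whether Hist1h1d has an open promoter thus depends on the start used.

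H2A and H2B form the dimers that flank the core of the nucleosome, and 15 of the 18 genes of each class were open in every library. By mean percentile the highest H2A promoter was Hist2h2aa2 on chromosome 3, with signals of 6.85, 25.7 and 13.6, at percentiles 96.7, 98.3 and 92.6. Its opposite-strand neighbour copy Hist2h2aa1 had 2.93, 7.24 and 4.08. Of their windows, 72.2% and 66.2% of 36-base words also occur elsewhere in the genome, so reads could be shared between copies. Hist1h2ac, with 3.01, 10.2 and 14.1, and Hist1h2ad, with 2.32, 10.4 and 17.4, followed among the H2A genes, and both exceeded Hist2h2aa2 in replicate 3. By mean percentile the highest H2B promoter was Hist2h2bb, with 3.17, 10.7 and 13.01, although Hist1h2bf, Hist1h2bc and Hist1h2bk exceeded it in replicate 3. Hist1h2bc and Hist1h2bf have the signals of Hist1h2ac and Hist1h2ad, whose peaks they share.

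Most H2A and H2B genes lie head to head, so that a single stretch of DNA serves both. There were 12 such pairs with starts 176 to 306 bp apart, at a median of 260 bp. In 9 pairs 1 peak reached both promoter windows in all 3 libraries. The windows reach 500 bp to both sides of each start, so those of a pair overlap widely. A peak near 1 gene thus mostly counts for both, and the sharing follows in large part from the window. At Hist1h2ae/Hist1h2bg no peak lay between the starts in replicate 1. Hist1h2bf/Hist1h2ad had the highest shared signal in replicates 2 and 3, with 2.32, 10.4 and 17.4 in replicates 1, 2 and 3. Hist1h2ac/Hist1h2bc had 3.01, 10.2 and 14.1, and Hist1h2ah/Hist1h2bk had 1.90, 7.12 and 13.2. The 9 pairs ran from 1.90 to 3.01 in replicate 1, from 7.12 to 10.4 in replicate 2 and from 9.37 to 17.4 in replicate 3.

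Peaks covered a median of 52.4%, 83.3% and 93.6% of the bases between the 2 starts of these 9 pairs. Between the starts lay a median of 2, 5 and 5 footprints in replicates 1, 2 and 3, and at most 8. The 3 other pairs had no peak between the starts in any library. Of these, Hist1h2bq/Hist1h2ao and Hist1h2ap/Hist1h2br lie in windows that are 100% copied elsewhere, and Hist1h2ba/Hist1h2aa encodes the testis forms of H2B and H2A. The 12 H2A and H2B genes outside such pairs were all open in every library, at median percentiles of 65.9, 69.9 and 79.2, against 66.8, 75.3 and 89.0 for the 24 paired genes. One further head-to-head pair, Hist1h2bh/Hist1h3f, joins H2B to H3 across 660 bp, and a single peak reached both of its promoter windows in replicate 3 alone.

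H3 forms the centre of the nucleosome with H4, and 10 of 12 H3 genes were open in every library. With a window of 250 bp, or when a peak's midpoint had to lie in the window, 8 of 12 were. The strongest peaks of Hist1h3f are centred at 529, 579 and -601 bp from its start in replicates 1, 2 and 3, past the edge of its window. Its peak in replicate 3 is also that of Hist1h2bh. By mean percentile Hist1h3e led the class, with 4.32, 13.1 and 11.7, at percentiles 84.2, 86.3 and 90.2. Hist1h3g, which was higher in replicate 3, had 2.90, 10.4 and 15.9, and Hist1h3b had 2.02, 7.08 and 10.2. Hist1h3e alone of these exceeded the median of all open genes in replicate 1, while Hist1h3g did so in replicates 2 and 3 and Hist1h3b in replicate 3. Hist1h3d had no peak in replicate 1 but signals of 4.07 and 6.57 in replicates 2 and 3. The nearest position with a listed false discovery rate lay 1238 bp from its start in replicate 1.

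H4 genes were the class with the highest share of open promoters: 13 of 13 had a peak and a footprint in every library. Hist1h4a had 6.37, 23.1 and 18.9, at percentiles 95.1, 97.1 and 97.1. Hist1h4c followed with 5.50, 18.7 and 16.6, and Hist1h4h with 5.38, 17.6 and 13.97. Each of these 3 lay above percentile 90 in every library. On chromosome 3, Hist2h4 had 4.72, 15.2 and 14.7, and the lone chromosome 6 gene Hist4h4 had 4.40, 13.9 and 9.86. The lowest were Hist1h4m, with 0.806, 2.59 and 2.63, and Hist1h4n, with 1.54, 7.02 and 3.55, whose windows are 95.8% and 96.7% copied elsewhere. The peaks of Hist1h4m in replicates 1 and 2 are centred 498 and 505 bp after its start, at or past the end of the gene, and with a window of 250 bp or with the shorter peak list it is open in 2 libraries, which leaves 12 of 13 H4 genes open in all.

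**Figure D2:**
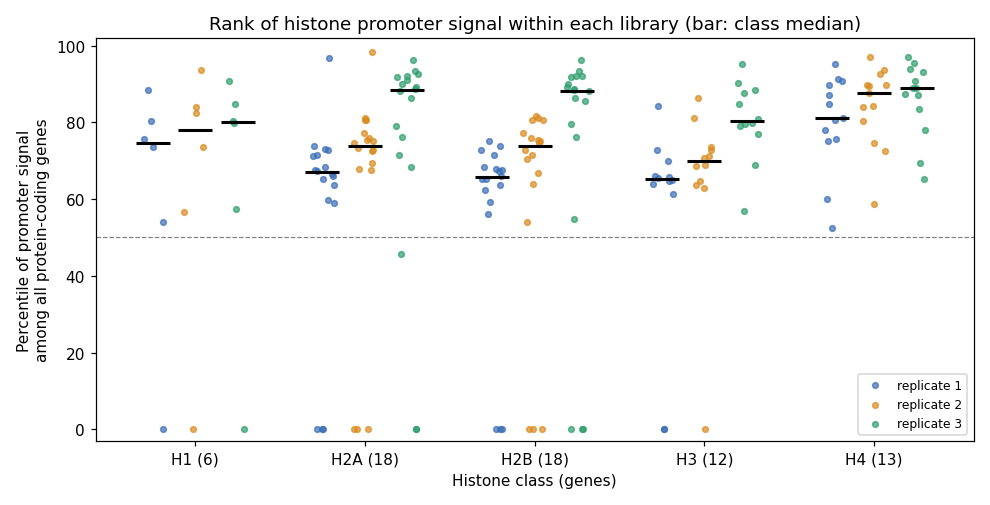
Percentile of promoter signal among all protein-coding genes (y axis) for each histone gene, by class (x axis, number of genes in brackets) and replicate (colour), with a bar at the class median and a dashed line at 50. The H4 medians are 81.1, 87.6 and 88.8, and the H2A medians 66.9, 73.9 and 88.4, with a similar spread between replicates for H2B, whose paired genes share peaks with H2A.

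Outside the large cluster, Hist2h2ac and Hist2h2be share a peak with 2.41, 8.26 and 10.8. Hist2h2ab, whose window overlaps that of Bola1, had 2.72, 5.93 and 3.29, so that this peak cannot be assigned to either gene, and Hist2h3b had 2.04, 5.68 and 5.66. On chromosome 11, Hist3h2ba had 1.15, 1.42 and 0.865, below the median open gene in every library. Hist3h2a had 2.19, 7.01 and 12.4, and its window overlaps that of Trim17, with the same limit.

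The genes without a peak fall into a few kinds. Besides Hist1h1d, no peak was listed in any library at Hist1h2bq, Hist1h2ao, Hist1h2ap and Hist1h2br, whose windows are 100% copied, nor at the testis gene Hist1h2ba, of whose window 16.5% is copied. Hist1h2aa, its testis partner, had 0.284 in replicate 3 and none in the others. Hist2h3c1, an H3 gene with 96.3% of its window copied, had 1.11 in replicate 3 and none in the others, while its copy Hist2h3c2, also 96.3% copied, had 2.60, 7.36 and 3.39. The strongest peak of Hist2h3c2 is centred at -524 from its start in each library, past the edge of its window, and with a window of 250 bp it is open in 1 library, so the contrast between these copies rests on the window. Of the 8 genes with over 90% of the window copied, 3 were open in every library, against 55 of the 59 others. How the authors' alignments treated reads that match several places is not given in the sources used here, and its part in these missing peaks was not tested.

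The classes did not keep the same order in all libraries. Over the median signal of all genes open in every library, H4 stood at 1.25, 1.77 and 2.19 times, and the 9 open H2A-H2B pairs at 0.740, 1.05 and 2.34 times in replicates 1, 2 and 3. The 10 H3 genes stood at 0.669, 0.820 and 1.56 times and the 5 H1 genes at 1.04, 1.41 and 1.37 times. The pairs had 0.594 and 0.596 of the H4 signal in replicates 1 and 2, and 1.07 in replicate 3. Replicate 3 thus stands apart for pairs and H3, and the levels of these classes relative to other genes rest on the library used.

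Base composition was set beside this difference. Histone promoters held a median of 45.3% G and C, against 52.7% over all promoters of the RefSeq table, open or not. By class the median was 51.2% for H1, 44.0% for H2A, 44.3% for H2B, 41.3% for H3 and 48.0% for H4. The class medians likewise cover open and closed promoters. Among the 53 histone genes open in every library and found in the table, the percentile in replicate 3 exceeded that in replicate 1 by a median of 16.3. By class it was 20.3 for H2A, 20.3 for H2B, 15.2 for H3, 6.08 for H4 and 4.51 for H1. Paired H2A and H2B genes share peaks, so the values of these classes are not independent. Over all 8853 genes open in every library and found in the table the median difference was -0.70. It was 1.67 in the quintile with the least G and C and -2.82 in the quintile with the most. The 45 histone genes of the lowest quintile differed by 17.1. The erythroid markers also stood higher in replicate 3, with median percentiles of 56.6, 69.1 and 79.5, a promoter without a peak counting as 0. The hepatoblast markers had 0, 46.4 and 52.1, but only 3 of the 10 had a peak in replicate 1. Of these 3, Hhex stood at 63.3, 58.2 and 57.6, Prox1 at 51.0, 49.85 and 50.4, and Trf at 52.0, 51.3 and 55.9. The genes of histone expression stood at 85.5, 85.5 and 85.1. The part of base composition or of the cell mixture in the difference was not tested.

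**Figure D3:**
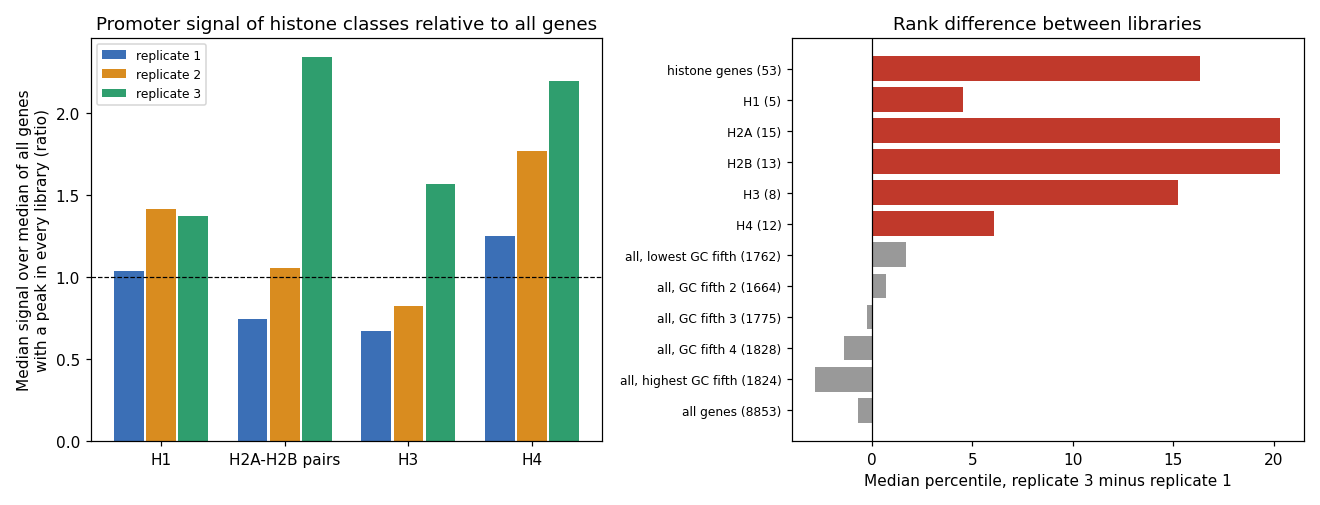
Left, median promoter signal of H1, H2A-H2B pairs, H3 and H4 over the median of all genes open in every library (y axis, ratio), by replicate; the dashed line marks 1. Right, median percentile in replicate 3 minus replicate 1 (x axis) for histone genes and classes (red) and for all genes by quintile of promoter G and C content (grey), with gene numbers in brackets. H2A and H2B, whose paired genes share peaks, reach 20.3, and the lowest quintile of all genes 1.67.

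The class-specific letters were searched on both strands in 63 RefSeq promoters of 62 members, each from 250 bases before to 50 after the gene start, and in all 32851 promoters of that table. Hist2h2be, Hist2h4, Hist1h3f, Hist1h2bc and Hist1h3a were not matched. TATAAA was present in 55.6% of histone promoters, against 13.6% of all promoters. CCAAT was present in 85.7%, against 37.4%, and in 100% of the H1, H2A, H2B and H3 promoters but in 3 of 12 H4 promoters. The GC box GGGCGG was present in 38.1%, against 35.7%, and AGATAA, the letters bound by GATA factors, in 20.6%, against 11.2%. A match is a run of letters and no proof of binding. Where the stretches of a head-to-head pair overlap, the same letters count once for each gene, here and in the footprint shares below.

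The H4 element GGTCCG was present in 11 of 12 H4 promoters, against 8.25% of all promoters. The stretches are printed below with the element in capitals and 12 bases on either side, to show what the copies share beyond it.
Hist1h4b: agttctcaaccaGGTCCGataagagcctat
Hist1h4c: agttttcaaccaGGTCCGcagaaggcctat
Hist1h4d: ggttttcaaacaGGTCCGcattggtattat
Hist1h4f: agtcctctaaaaGGTCCGcattcgccatat
Hist1h4h: agtcttcaatcaGGTCCGaaaacactgcat
Hist1h4i: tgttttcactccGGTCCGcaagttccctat
Hist1h4j: ggttctcatttcGGTCCGcccgctacagta
Hist1h4k: ggttctcatttcGGTCCGcccgccgcagta
Hist1h4m: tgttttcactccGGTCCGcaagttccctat
Hist1h4n: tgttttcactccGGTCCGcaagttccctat
Hist4h4: tgttttcaatcaGGTCCGctcccaggaaat
Hist1h4i, Hist1h4m and Hist1h4n have the same 30 bases, and in each of the 11 the element reads on the gene's strand, starting between -47 and 6 when the RefSeq start is counted as 0.

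Footprints lay over this element. In H4 promoters with a footprint, 6 of 10, 11 of 11 and 10 of 11 matches overlapped a footprint in replicates 1, 2 and 3, which is 60.0%, 100% and 90.9%. Over all promoters with a footprint the shares were 21.4%, 38.9% and 31.2%. TATAAA matches in histone promoters overlapped a footprint in 46.4%, 68.4% and 70.3% of cases, against 19.3%, 24.8% and 23.2% over all promoters. For CCAAT the shares were 7.84%, 35.2% and 36.4%, against 19.5%, 32.8% and 32.8%.

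Hist1h4a, the strongest H4 promoter, has no GGTCCG in its window. Its stretch printed above holds TTTCCCGC 4 times, letters present in 1.07% of all promoters and in no other histone promoter searched. Counted from the RefSeq start as 0, these matches start at -199, -144, -89 and -64, and a footprint lay over them in 3, 2, 3 and 0 libraries. The match at -89 overlaps a GC box on the opposite strand. The other E2F form searched, TTTGGCGC, was in no histone promoter and in 0.514% of all. The TATAAA of Hist1h4a starts at 41, after the RefSeq start.

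The H1 box AAACACA was in 5 of 6 H1 promoters, against 7.18% of all promoters. It starts between -122 and -112 from the RefSeq start, as these stretches show with the box in capitals.
Hist1h1b: ggggactaacAAACACAatttgggatt
Hist1h1c: gaagtgtaacAAACACAagttgggcgc
Hist1h1d: gaggggcaacAAACACAgccacaaggc
Hist1h1e: gaggtgtaacAAACACAactccgcatc
Hist1h1t: gggggaaaagAAACACAaatgcccctc
In the 4 of these outside the testis gene the box follows the letters AAC. A footprint lay over the box in 0 of 4, 4 of 4 and 2 of 4 H1 promoters with a footprint in replicates 1, 2 and 3, against 10.9%, 15% and 12.1% of the matches in all promoters with a footprint.

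The octamer ATTTGCAT was in 22.2% of histone promoters, against 1.74% of all promoters. It was in 7 of 17 H2B promoters on the gene's strand and 7 of 18 H2A promoters on the opposite strand. At Hist1h2ah/Hist1h2bk, Hist1h2ae/Hist1h2bg and Hist1h2ba/Hist1h2aa both genes hold the same site. Such a site counts once for each gene in these counts and in those of footprints. Of the 12 matches in promoters with a footprint, 4 overlapped one in replicate 2 and 8 in replicate 3, and of 10 in replicate 1 none did. Over all promoters with a footprint the shares were 15.03%, 22.7% and 24.2% in replicates 1, 2 and 3, so the histone promoters were below them in replicate 1. The stretches of all 7 H2B genes are shown with the octamer in capitals, the first 6 from genes open in every library and the last from the testis gene Hist1h2ba, open in none.
Hist1h2bk: gcatttcactttATTTGCATacgaagttct
Hist2h2bb: gtgtgaaacctcATTTGCATacaagctcta
Hist1h2bg: tttgagtcccttATTTGCATagaacctcta
Hist1h2bb: tttgagtctcttATTTGCATaaagcctttg
Hist1h2bm: tctctcgtctctATTTGCATaacagcgtgt
Hist1h2be: aagtaagacttaATTTGCATaagactgcct
Hist1h2ba: tgaattccccttATTTGCATgcacccagca
A footprint lay over the octamer in 2 libraries at Hist1h2bk and in 1 at Hist2h2bb and Hist1h2bg. None lay over it at Hist1h2bb, Hist1h2bm and Hist1h2be, which are open. Hist1h2ba had no footprint anywhere in its window, so its octamer could not carry one. Open and closed genes thus cannot be compared by this footprint. The Hist1h2be stretch precedes a RefSeq start that lies 35124 bp from the annotated start used for its window. Around that RefSeq start the signals were 2.23, 6.74 and 6.57 in replicates 1, 2 and 3, against 1.78, 4.09 and 5.41 at the annotated start.

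**Figure D4:**
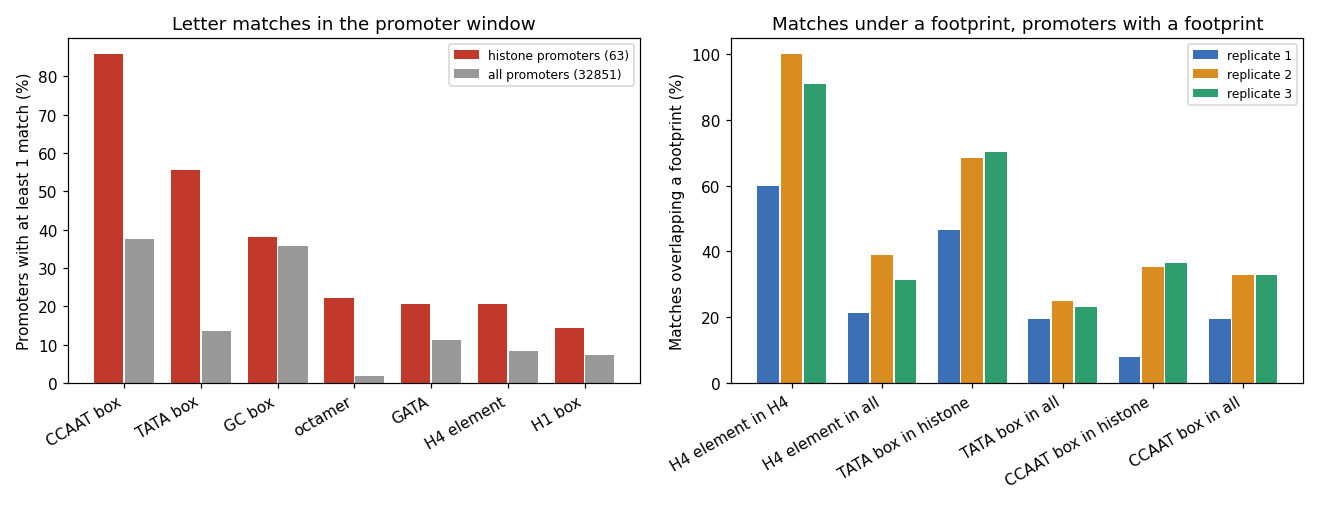
Left, share of promoters (y axis, %) with at least 1 match of each set of letters in histone promoters (red) and in all promoters (grey). Right, share of matches that overlap a footprint (y axis, %) by replicate, among promoters with a footprint: the H4 element in H4 promoters reaches 60.0%, 100% and 90.9%, against 21.4%, 38.9% and 31.2% over all promoters.

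Histone promoters held a median of 11 CpG pairs per 300 bases, against 7 over all promoters of the RefSeq table, open or not. The observed over expected ratio, which takes base composition into account, was 0.746, against 0.384. Open promoters alone were not compared. Footprints at the 67 promoters numbered 264, 652 and 430 in replicates 1, 2 and 3, and 152 of those of replicate 1 overlapped one in both other libraries. Their median width was 8, 12 and 12 bp, against 10 bp in each library over all footprints.

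The messenger RNA end also marks these genes. The 16-base stem-loop was found in the gene or the 200 bp after it in 58 of the 67 histone genes (86.6%), against 6 of 21784 other genes (0.0275%). The search ran on the gene's strand and allowed C or T, C or A and A or G at 1 place each; in the histone genes 3 forms occurred, which are printed here because the 2 arms pair with each other in RNA: the last form differs from the first in both arms, and the middle form in the loop.
41 members: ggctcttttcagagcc
9 members: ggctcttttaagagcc
8 members: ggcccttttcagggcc
All 6 H1 genes hold a stem-loop, and so do 16 of 18 H2A, 17 of 18 H2B, 11 of 12 H3 and 8 of 13 H4 genes. The 9 with none of these letters in the region searched are Hist1h2an, Hist1h3g, Hist1h4a, Hist1h4b, Hist1h4i, Hist1h4j, Hist2h2ac, Hist2h2be and Hist2h4. Among the 6 other genes is H2afx, a replacement histone, and Trim17, the neighbour of Hist3h2a.

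The promoters of genes that serve histone expression were open throughout. All 26 of that list had a peak in all 3 libraries, against 50.2% of all genes. Npat, the scaffold of the histone locus body, had 8.38, 26.7 and 22.5, at a mean percentile of 98.8. Casp8ap2, which encodes the partner FLASH, had 6.65, 26.05 and 21.7. Hinfp, the factor of the H4 element, had 5.52, 23.5 and 21.5, and Slbp, the stem-loop binding protein, had 5.11, 16.2 and 11.4. The U7 particle genes Lsm10 and Lsm11, which serve the 3′ end cut, had 4.81, 11.8 and 10.4 and 8.33, 15.6 and 7.20. The lowest by mean percentile was Cpsf2, a subunit of the cutting complex, with 2.43, 5.93 and 1.66.

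Histone chaperones, which carry histones to DNA, were open in every library at 17 of 17 genes, against 50.2% of all genes. They were led by mean percentile by Nap1l4 with 6.68, 23.6 and 18.4 and Chaf1b with 7.11, 25.5 and 14.8, while the importin Ipo4 had 1.24, 2.44 and 1.72. Replacement histones, which are made outside S phase as well, were open in every library at 9 of 11 genes, against the same 50.2%. H2afv had 6.63, 24.96 and 20.5 and H2afx had 6.21, 22.6 and 27.7. H2afy2, a macroH2A gene, had a peak in replicate 2 alone, of 0.469. Their median percentiles were 84.9, 80.3 and 83.5, against 67.4, 74.5 and 87.2 for the clustered genes. Of 6 germline histone genes, H1fnt alone had a peak, in replicates 2 and 3.

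Of 10 protein-coding neighbours, the other genes within the clusters, 2 were open in every library, against 50.2% of all genes. In replicates 1, 2 and 3 the open share was 30%, 50% and 30%, against 52.6%, 65.8% and 54.9% of all genes. With 10 genes these shares are coarse. The 2 are Trim17, whose window overlaps Hist3h2a, and the zinc finger gene Zfp184 with 1.88, 3.86 and 2.37. Pom121l2 was open in 2 libraries, Prss16, Hfe and Slc17a2 in 1 each, and Trim38, Slc17a1, Slc17a3 and Slc17a4 in none. On chromosome 13, 19 of 23 histone genes of the proximal run and 27 of 31 of the distal run were open in every library. Hfe, an iron metabolism gene open in replicate 2 alone, lies between the open genes Hist1h4c and Hist1h1c, while Trim38 and the phosphate transporter genes Slc17a1, Slc17a2, Slc17a3 and Slc17a4 lie between Hist1h1a, the last open histone gene, and the testis pair Hist1h2ba/Hist1h2aa.

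**Figure D5:**
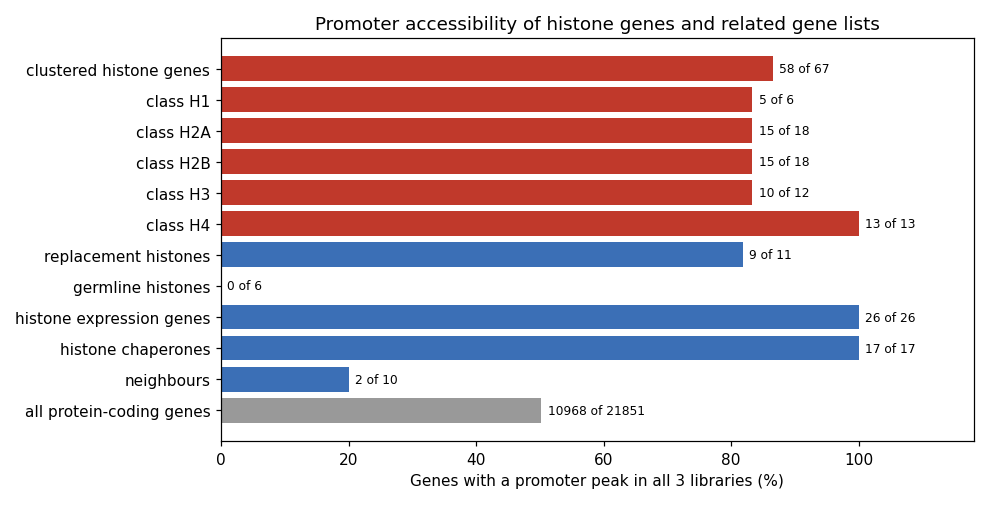
Share of genes with a promoter peak in all 3 libraries (x axis, %), with counts beside the bars, for the clustered histone genes and their classes (red), related lists (blue) and all protein-coding genes (grey). Histone expression genes and chaperones reach 26 of 26 and 17 of 17, and neighbours 2 of 10, against 50.2% of all protein-coding genes.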

How the data were processed

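Peaks, positions with a false discovery rate and footprints were derived by the authors for each library from its own filtered alignments to mm10, per the listing deposited with each library; which caller made the peaks is not stated. Peak signal was used as deposited by the authors, on a scale that is not given in the sources used here, so signals were compared within a library or as percentiles. The false discovery rate, a q-value of at most 0.05 per position, was deposited by the authors; the footprint lists carry the deposited constant 0.01, which was not used. The members and gene lists were chosen with earlier results of these data known. Genes came from GENCODE M21 (chromosomes 1 to 19, X and Y). Overlaps, ranks, motif matches and copied 36-base words were computed with Python 3.11.15, numpy 2.4.6 and pandas 2.3.3, and figures with matplotlib 3.10.9; the overlap step was tested on simulated data. Head-to-head pairs had starts at most 1000 bp apart. Named genes were, per class, the 3 highest and the lowest by mean percentile, all members outside Hist1h, testis forms, members with a peak in at most 1 library, the 2 highest and the lowest of each list, and Npat, Slbp, Casp8ap2, Hinfp, Lsm10 and Lsm11; further genes were chosen after their values were seen. Read depth is not given in the files, so the number of peaks stands for how much each library showed. Alternatives are in the closing section.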

Additional observations from a re-analysis of the deposited data

How the results depend on the processing

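The mean share of histone genes with an open promoter, 88.6%, came to 83.6% with a window of 250 bp, 84.1% with the shorter peak list, 85.6% when a peak's midpoint had to lie in the window, 91.4% when overlapping windows were merged into 54 regions, 93.9% for members with under 50% of the window copied and, chosen after seeing the data, 94.9% for those with at most 90% copied. Without 1 replicate it ran from 87.3% to 89.6%, the count open in every library from 58 to 59, that with a footprint from 56 to 59, and the median percentile, 76.4 over the 3 libraries, from 71.0 to 80.9, lowest without replicate 3. The count of open members was 51 with the shorter list, and 8 of the 12 pairs shared a peak with it or with the 250 bp window. Ranking by the lowest false discovery rate gave a median percentile of 69.3. Of 612 values for the 51 named genes, 567 moved by at most the SD between replicates and 45 by more. The 612 include values without 1 replicate, which cannot move by more than that SD and so say nothing on stability. Ranking by the lowest false discovery rate moved 20 of the 51 genes by more. No paired analysis was possible because the libraries form 1 group. Hist1h1t, Hist1h4m, Hist2h3c2, Hist1h3f and Hist1h2bg were not open in every library with the 250 bp window, and Hist3h2ba, Hist1h2af, Hist1h2ae, Hist1h2ab, Hist1h4m, Hist1h2bg and Hist1h1t with the shorter list; the counts by class were chosen after seeing the data. Replacement histones came to 10 and neighbours to 3 without replicate 3.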
